A study of Mus musculus with 8 samples.

Results

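The major urinary protein (Mup) family was examined through 10 of its genes, Mup1, Mup2, Mup3, Mup4, Mup5, Mup7, Mup8, Mup9, Mup10 and Mup20, out of 51789 genes in the deposited count table. These 10 were chosen with the values of the same libraries known, in particular the counts of Mup8, so their levels and differences are given as a description without a test. The table holds 49 Mup genes, of which 22 are protein-coding, and the other 12 protein-coding genes are used here only where a result turns on them. The libraries came from RNA of whole abdominal mammary glands of female C57BL/6 mice with an intact immune system (an albino stock carrying the Tyrc-2J allele is the C57BL/6 stock that the study lists), harvested 6 weeks after injection of small extracellular vesicles (sEVs). The vesicles came from cultures of AT3, a mouse mammary adenocarcinoma cell line that forms metastases, kept in normoxia (sEVNORM, 3 libraries) or hypoxia (sEVHYP, 2 libraries), and the control preparation was isolated from medium that no cells had conditioned (sEVCTRL, 3 libraries). All glands were therefore injected, and the vesicles of both treated groups came from a single cell line. The study counts the replicates of this experiment as animals, so the spread between libraries is taken as that between animals, and the age of the mice is not given in the sources used here. Total counts were 18194996 to 24622569 per library, and where a library had 0 counts of a gene, up to 3 counts remain possible, which covers counting error only.

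Major urinary proteins are small secreted lipocalins with a barrel-shaped pocket that binds pheromones and other small hydrophobic ligands. In mice they are made in large amounts by the liver, pass through the kidney into urine and carry scent signals that are read by the vomeronasal organ. Several are also known from mammary, salivary and lacrimal glands, and Mup1 is known to circulate and to affect glucose and lipid metabolism. Growth hormone drives Mup transcription through the transcription factor STAT5B, and the genes lie next to each other as a set of recent tandem copies.

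The protein-coding genes lie between chr4:59956804-62150863 on GRCm38, and the 10 members are all on the minus strand. The recent copies share most of their sequence, which bears on every count below, because an estimate per gene has to divide reads that match several copies. A stretch of 90 coding bases within a single exon is shown for the members and for Mup22, the family gene with the most counts, from GENCODE M21 transcripts. It was chosen to show how alike the copies are, and capitals mark bases that differ from Mup22 (chr4:60818837-60818926, minus strand, coding bases 430 to 519).
Mup22: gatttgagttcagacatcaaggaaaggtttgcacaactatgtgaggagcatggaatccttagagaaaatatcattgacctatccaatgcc
Mup10: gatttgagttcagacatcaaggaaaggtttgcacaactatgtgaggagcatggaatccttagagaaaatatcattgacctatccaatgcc
Mup2: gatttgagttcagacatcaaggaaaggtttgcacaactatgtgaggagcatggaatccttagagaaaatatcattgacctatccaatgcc
Mup8: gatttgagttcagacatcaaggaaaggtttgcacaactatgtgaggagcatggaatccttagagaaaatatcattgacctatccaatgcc
Mup9: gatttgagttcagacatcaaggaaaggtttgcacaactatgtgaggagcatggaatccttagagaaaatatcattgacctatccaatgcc
Mup1: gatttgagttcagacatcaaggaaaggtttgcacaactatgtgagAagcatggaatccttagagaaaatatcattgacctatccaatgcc
Mup7: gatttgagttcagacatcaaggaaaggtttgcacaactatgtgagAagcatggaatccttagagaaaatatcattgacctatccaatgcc
Mup5: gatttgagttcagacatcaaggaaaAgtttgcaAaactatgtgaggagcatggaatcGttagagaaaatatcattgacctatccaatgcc
Mup20: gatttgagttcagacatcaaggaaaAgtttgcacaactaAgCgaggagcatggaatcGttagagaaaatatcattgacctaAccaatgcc
Mup3: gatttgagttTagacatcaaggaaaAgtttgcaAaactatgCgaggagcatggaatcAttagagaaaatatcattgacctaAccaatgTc
Mup4: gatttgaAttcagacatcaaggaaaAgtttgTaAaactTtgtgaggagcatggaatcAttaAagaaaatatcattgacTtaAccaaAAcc
In this window Mup10, Mup2, Mup8 and Mup9 could not be told from Mup22, while Mup1 and Mup7 had 1 difference and shared their sequence. Mup5 had 3 differences, Mup20 had 5, Mup3 had 7 and Mup4 had 11, so the 11 genes gave 6 distinct sequences. The Mup8 window lies at chr4:60219873-60219962 and the Mup10 window at chr4:60579511-60579600, both on the minus strand.

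Over the longest transcript of each gene, the 22 protein-coding genes fell into 2 groups of at least 98% identity and 6 genes that stood alone. The first group has 12 genes, among them the members Mup1, Mup2 and Mup10 together with Mup22. The second has 4 genes, Mup7, Mup8, Mup9 and Mup13, which were 98.5% to 99.0% identical, and is called the Mup7 group here. Mup3, Mup4, Mup5 and Mup20 stood alone, and the closest relative of Mup3 outside itself, Mup21, was 85.5% identical.

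Stretches of 100 bases show how much sequence can assign a read to 1 gene. Of the distinct 100-base stretches in the transcripts of Mup8, 30.6% were found in no other gene, and the shares were 28.1% for Mup9, 23.9% for Mup7, 26.6% for Mup10, 24.5% for Mup2 and 44.3% for Mup1. The more distant members were better separated, with 61.2% for Mup20, 97.8% for Mup3, 98.7% for Mup5 and 100% for Mup4. Mup22 had no 100-base stretch of its own (0 of 762), and 92.4% of its stretches also occurred in Mup10 and 57.6% in Mup8. Of the stretches of Mup8, 34.3% were confined to the Mup7 group. The largest shares were with genes outside that group, at 55.3% for Mup14, 54.8% for Mup19, 48.6% for Mup1 and 46.1% for Mup2. They were 44.9% for Mup9, 44.5% for Mup22 and 34.3% for Mup7. The read length is not given in the sources used here, so 100 bases is an example and not the length of the reads.

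**Figure D1:**
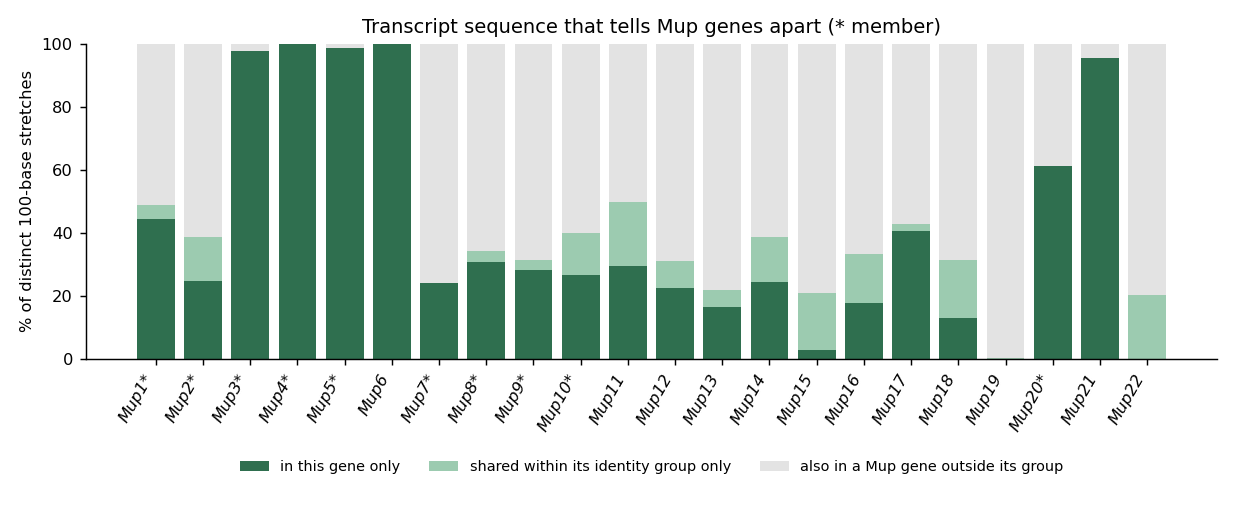
The share of distinct 100-base transcript stretches (y axis, %) is drawn for each of the 22 protein-coding Mup genes (x axis, asterisks mark the 10 members), split into stretches found in that gene only, shared only within its identity group, or also found in a Mup gene outside the group. Mup3, Mup4 and Mup5 are almost wholly distinct, Mup7, Mup8, Mup9 and Mup10 lie between 23.9% and 30.6%, and Mup22 has 0% of its own.

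Promoter sequence was shared as well. The 80 bases before the annotated start are shown for Mup10, Mup9 and Mup2, whose sEVHYP libraries lie above every sEVCTRL library, and for Mup7, whose libraries overlap, with capitals on TATATAA (RefSeq, GRCm38.p6, transcribed strand).
Mup10: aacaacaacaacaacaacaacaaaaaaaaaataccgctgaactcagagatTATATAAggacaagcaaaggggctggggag
Mup9: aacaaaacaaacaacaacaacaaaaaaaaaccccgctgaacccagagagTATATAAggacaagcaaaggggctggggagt
Mup2: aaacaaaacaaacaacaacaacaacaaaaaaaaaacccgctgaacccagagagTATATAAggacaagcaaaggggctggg
Mup7: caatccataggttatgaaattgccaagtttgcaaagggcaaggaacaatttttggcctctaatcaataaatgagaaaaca
These windows are chr4:60582156-60582235, chr4:60421953-60422032, chr4:60139857-60139936 and chr4:60070476-60070555. The capitalized letters, those of a TATA box, were looked for on the transcribed strand of the same 80-base window. They were found for 5 of the 6 members with an entry, all but Mup7, and in 11 of 14 Mup promoters. Over all 32851 promoters of the table, 1.23% had them on either strand. Mup3 and Mup4, not shown here, also had the letters, and their libraries overlapped in every comparison. A match describes the letters only, and the annotated start of Mup7 differs from that of the others. The letters began 11 bases before the start for Mup3 and 8 for Mup21, against 25 to 31 for the other matches. Bases past the start were not searched, so these counts depend on where the starts are annotated. Whether the letters bear on the levels was not tested.

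The family as a whole took a visible share of the RNA of the mammary gland, from 0.242% of the counts in sEVCTRL replicate 2 to 1.02% in sEVHYP replicate 2. Most of this was assigned to Mup22, which held 87.3% to 89.7% of all Mup counts in every library, while the 10 members together held 3.6% to 5.57%. Levels in CPM (counts divided by the library size after TMM correction) summed over all Mup genes were 5176, 2418 and 4143 in the sEVCTRL libraries. The same sum was 5075, 3744 and 7269 in the sEVNORM libraries. With sEVHYP it was 7540 and 10450, so both sEVHYP libraries were above all others, although sEVNORM replicate 3 was close to the lower of them. The 27 annotated pseudogenes of the family held 15 counts in all.

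**Figure D2:**
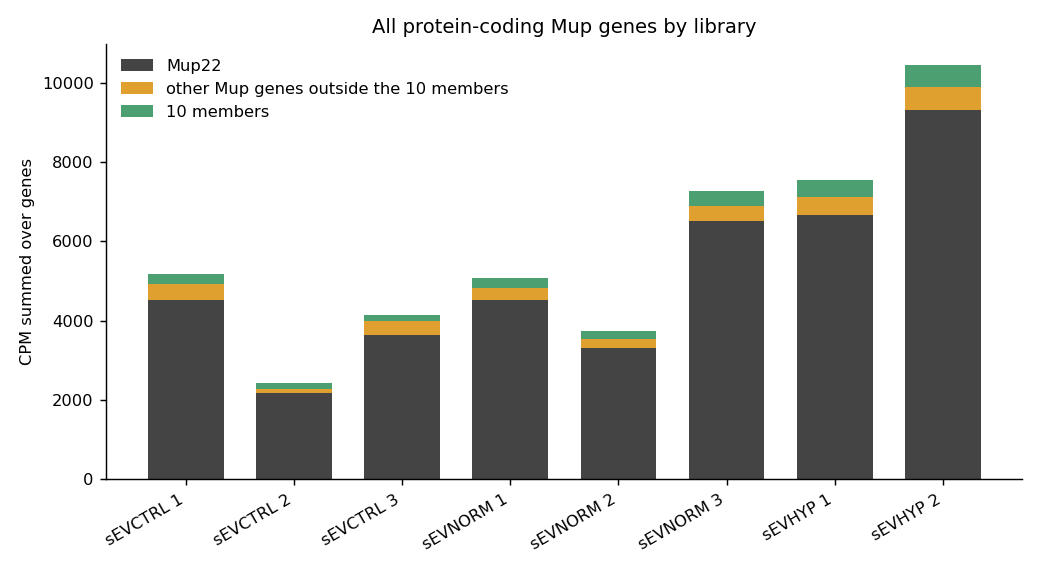
Stacked bars give the summed level (y axis, CPM) of Mup22, of the 10 members and of the other protein-coding Mup genes in each of the 8 libraries (x axis). The sEVHYP bars reach 7540 and 10450 CPM against 2418 to 7269 CPM in the other 6 libraries, and Mup22 fills most of each bar.

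The 10 members summed to 259, 135 and 149 CPM in the sEVCTRL libraries. With sEVNORM the sum was 245, 208 and 386 CPM, and with sEVHYP it was 415 and 571 CPM. The means were 181 ± 68.1 (SD, n = 3) with sEVCTRL, 279.7 ± 93.6 (SD, n = 3) with sEVNORM and 493 ± 111 (SD, n = 2) with sEVHYP. On the log2 scale the sEVHYP mean was 1.49 ± 0.42 (SE) above sEVCTRL and 0.85 ± 0.42 above sEVNORM, and the sEVNORM mean was 0.64 ± 0.37 above sEVCTRL. These comparisons with sEVHYP share its 2 libraries and are not independent of each other. Mup10 was the largest part of the sum, at 1.42% to 4.25% of all Mup counts in a library. Over the 7 members that passed the filter on low counts, the median fitted log2 difference was 0.72, 0.69 and -0.03 in the same order. For all Mup genes the log2 differences were 1.25 ± 0.45, 0.78 ± 0.45 and 0.47 ± 0.40 in the same order, and without Mup22, a choice made after the data were seen, they were 1.19, 0.82 and 0.38. In bulk tissue, more cells that express these genes and more RNA per cell cannot be told apart.

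Mup22 (ENSMUSG00000110439, chr4:60817589-60821463, minus strand) is not one of the 10 members but carries the family total. Its level was 4518, 2169 and 3637 CPM with sEVCTRL, 4511, 3320 and 6507 CPM with sEVNORM, and 6665 and 9315 CPM with sEVHYP. Both sEVHYP libraries were above the rest, sEVNORM replicate 3 was close to the lower one, and the log2 difference was 1.22 ± 0.37 (SE) from sEVCTRL and 0.74 ± 0.37 from sEVNORM. Because Mup22 has no 100-base stretch of its own, the division of reads between Mup22 and the members rests on the estimation step of the authors, and whether it is right was not tested.

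Mup10 (ENSMUSG00000078680, chr4:60578260-60582199) was the member with the most counts, 35142 over the 8 libraries. Its level was 169.8, 83.8 and 58.6 CPM with sEVCTRL and 174, 159 and 288 CPM with sEVNORM. With sEVHYP it was 319 and 423 CPM, above every library of both other groups. The fitted log2 difference of sEVHYP was 1.83 ± 0.42 (SE) from sEVCTRL and 0.84 ± 0.42 from sEVNORM, and that of sEVNORM from sEVCTRL was 0.99 ± 0.39 (1.52 without sEVCTRL replicate 1), with overlapping libraries. Relative to Mup22, Mup10 was steadier than its level, at 37.6 to 48.0 counts per 1000 Mup22 counts in 7 libraries. The exception was sEVCTRL replicate 3, with 16.1 per 1000, so the lowest Mup10 level of the series came from a library whose Mup22 level was not the lowest. Since 92.4% of the 100-base stretches of Mup22 also occur in Mup10, neither this ratio nor the Mup10 level is independent of how shared reads were divided.

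Mup9 (ENSMUSG00000078686, chr4:60418046-60421952) also had both sEVHYP libraries above all others. Its level was 6.75, 2.05 and 4.59 CPM with sEVCTRL, 4.18, 3.32 and 5.63 CPM with sEVNORM, and 7.74 and 17.2 CPM with sEVHYP. The fitted log2 difference of sEVHYP was 1.48 ± 0.50 (SE) from sEVCTRL and 1.51 ± 0.49 from sEVNORM. Without sEVHYP replicate 2 the differences were 0.78 and 0.81. The sEVNORM libraries lay within the range of the sEVCTRL libraries, at a log2 difference of -0.03 ± 0.46.

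Mup2 (ENSMUSG00000078688, chr4:60135932-60154289) was at 42.9, 29.5 and 32.4 CPM with sEVCTRL and at 40.5, 22.02 and 47.7 CPM with sEVNORM. With sEVHYP it was at 45.4 and 69.4 CPM, above each sEVCTRL library but overlapping sEVNORM. The fitted log2 difference was 0.72 ± 0.33 (SE) from sEVCTRL and 0.64 ± 0.33 from sEVNORM. Without sEVHYP replicate 2 these were 0.37 and 0.29, and the second was 0.38 without sEVNORM replicate 2. Counted together with the 11 other genes of its identity group, the difference from sEVCTRL was 1.26, since the sum is mostly Mup22.

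Mup7 (ENSMUSG00000073842, chr4:60066469-60070475) and Mup3 (ENSMUSG00000066154, chr4:62083476-62087342) showed no separation between groups. Mup7 was at 26.1, 13.0 and 27.7 CPM with sEVCTRL, at 12.7, 12 and 23.8 CPM with sEVNORM, and at 20.5 and 31.6 CPM with sEVHYP. Mup3 was at 12.1, 3.42 and 9.02 CPM with sEVCTRL, at 7.40, 8.95 and 7.61 CPM with sEVNORM, and at 7.97 and 14.8 CPM with sEVHYP. For both genes the groups overlapped in every comparison, and the log2 difference of sEVHYP from sEVCTRL was 0.23 ± 0.40 (SE) for Mup7 and 0.48 ± 0.46 for Mup3. Without sEVHYP replicate 2 these were -0.14 and -0.05. Mup3, with 97.8% of its 100-base stretches of its own, is the member with more than 1000 counts that borrows least from the rest of the family.

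**Figure D3:**
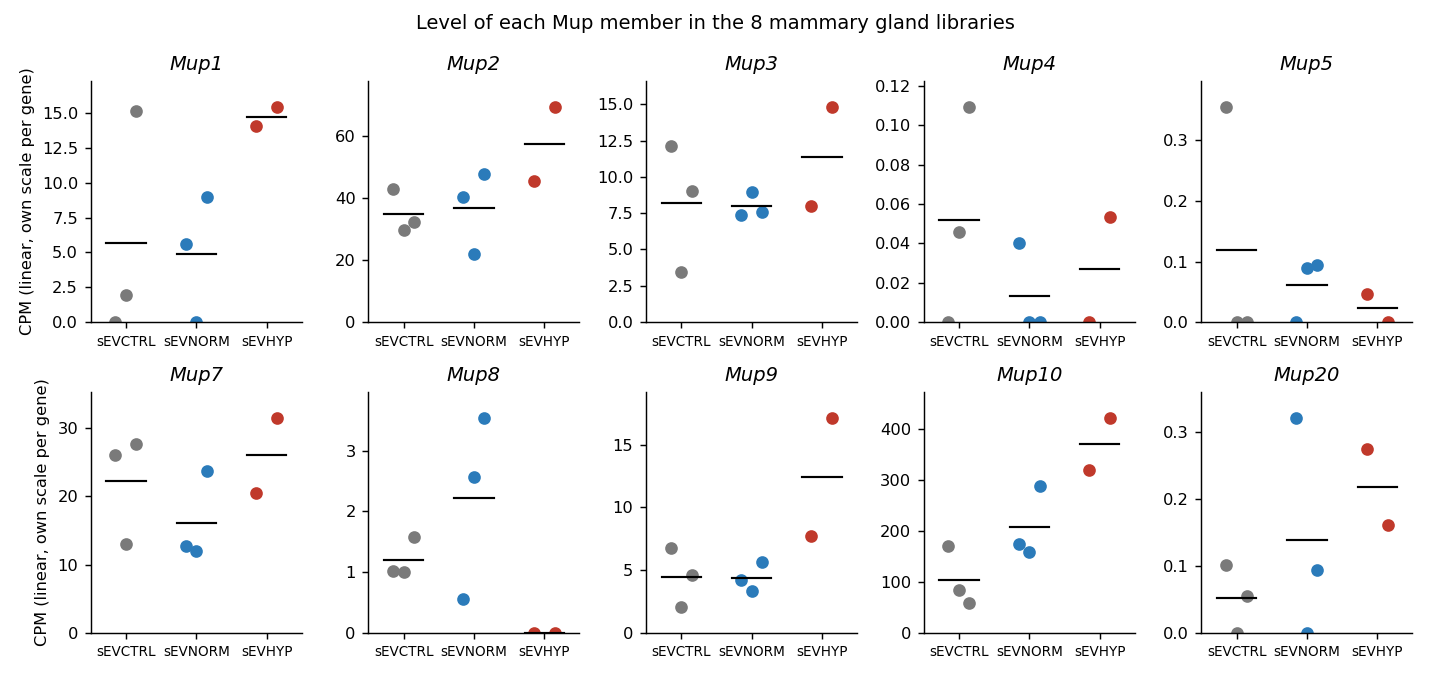
Each panel gives 1 of the 10 members, with the level in each library (y axis, CPM on a linear axis from 0 that differs between panels) as a point for the 3 sEVCTRL, 3 sEVNORM and 2 sEVHYP libraries (x axis) and the group mean as a line. In the Mup10 and Mup9 panels both sEVHYP points lie above all others, and in the Mup8 panel both lie at 0.

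Mup1 (ENSMUSG00000078683, chr4:60498012-60501960), the best known member outside the liver, went from 0 to over 100 counts within a group. Its counts were 0, 43 and 277 with sEVCTRL, 140, 0 and 190 with sEVNORM, and 307 and 289 with sEVHYP. The sEVHYP libraries were above all sEVNORM libraries and overlapped sEVCTRL in CPM (14.0 and 15.5 against 0 to 15.2). The fitted log2 differences of 1.38 from sEVCTRL and 1.60 from sEVNORM each had a standard error of 1.57 and were therefore about the size of their error. The first was 3.88 without sEVCTRL replicate 3 and 0.78 without sEVCTRL replicate 1, and the second was 1.02 without sEVNORM replicate 2. In both libraries where Mup1 was at 0, sEVCTRL replicate 1 and sEVNORM replicate 2, the other genes of its identity group had counts, Mup10 for example 3346 and 3595. Among the 17858 genes tested, 56 (0.314%) had a library at 0 and another with at least 100 counts, and Mup1 was the only Mup gene among them.

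Mup8 (ENSMUSG00000078687, chr4:60218621-60222599) was the member that set the family apart in the choice of genes. Its counts were 20, 22 and 29 with sEVCTRL, 14, 58 and 75 with sEVNORM, and 0 and 0 with sEVHYP. The levels were 1.02, 1.00 and 1.59 CPM, then 0.563, 2.57 and 3.55 CPM, and then 0. Against a floor of 3 counts per library, the Mup8 counts were at least 8.07-fold lower with sEVHYP than with sEVCTRL. This bound covers counting error only and not the division of reads among the copies. The libraries of sEVNORM overlapped those of sEVCTRL, at a log2 difference of 0.89 ± 0.64 (SE), which was 0.38 without sEVNORM replicate 3 and 1.35 without sEVNORM replicate 1. A count of 0 in both sEVHYP libraries with at least 10 counts in each of the other 6 was found for 1 of 17858 genes, Mup8 itself, by a rule set after its values were seen.

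The near-identical copies of Mup8 did not share this pattern. The 4 genes of the Mup7 group summed to 34.2, 17.0 and 35.6 CPM with sEVCTRL, 19.2, 18.3 and 34.4 CPM with sEVNORM, and 29.4 and 50.2 CPM with sEVHYP. Group sums overlapped in each comparison, with log2 differences for sEVHYP of 0.48 ± 0.50 (SE) from sEVCTRL and 0.74 ± 0.50 from sEVNORM. Mup8 itself made up a small part of this sum, since its highest level was 3.55 CPM. Its closest relative in the group, Mup9, was at its highest in the same libraries in which Mup8 was at 0. Mup9 was not alone in this, since Mup10, Mup11, Mup12, Mup15, Mup17 and Mup22, all outside the group, were also highest in those libraries. Mup13, the fourth gene of the group and not a member, had 7 to 43 counts outside sEVHYP and 26 and 28 counts with sEVHYP. Whether Mup8 reads of the sEVHYP libraries were assigned to another copy was not tested, because the reads are not part of the table. Only 34.3% of the 100-base stretches of Mup8 are confined to the Mup7 group, so its reads can also match genes outside the group sum.

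**Figure D4:**
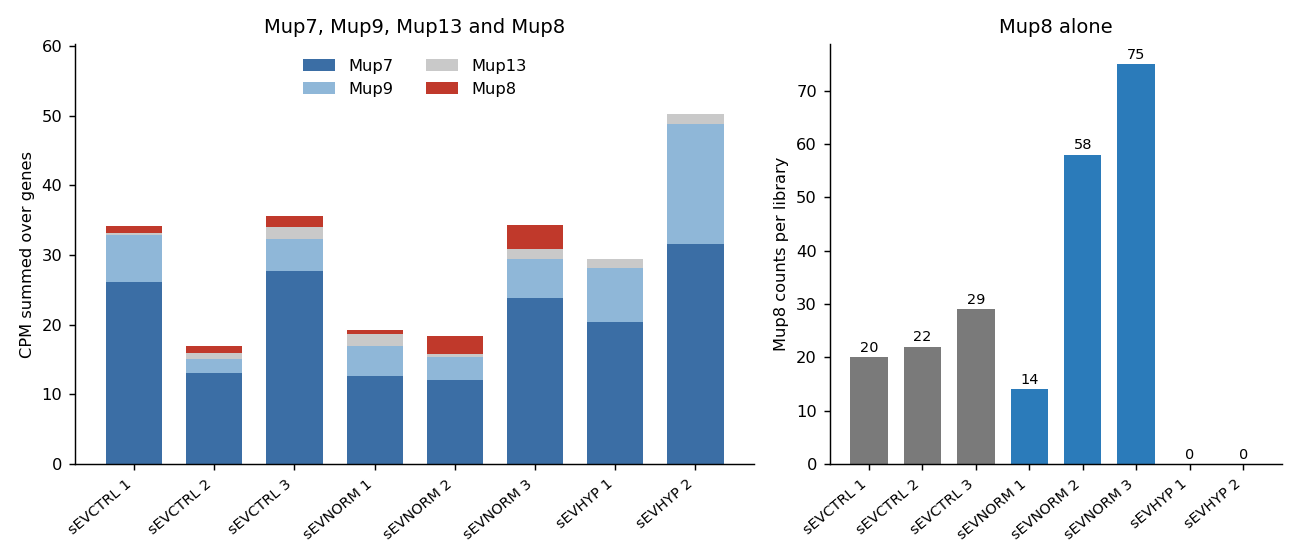
Left, stacked bars give the level (y axis, CPM) of Mup7, Mup9, Mup13 and Mup8 in each of the 8 libraries (x axis). Right, bars give the counts of Mup8 alone, which are 0 in both sEVHYP libraries and 14 to 75 in the others, while the stacked sums with sEVHYP, 29.4 and 50.2 CPM, are within or above the range of the other libraries.

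The remaining members were near the limit of detection. Mup4 (ENSMUSG00000041333) had 5 counts over all libraries and at most 2 in any of them. Mup5 (ENSMUSG00000058523) had 12 counts, 7 of them in sEVCTRL replicate 1. Mup20 (ENSMUSG00000078672), known as darcin, a male urinary pheromone, had 22 counts, with 2, 0 and 1 with sEVCTRL, 8, 0 and 2 with sEVNORM, and 6 and 3 with sEVHYP. None of these 3 genes passed the filter on low counts, so no fitted difference is given for them. Both sEVHYP libraries of Mup20 were above its sEVCTRL libraries, but at counts too low to establish a difference.

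Of the 10 members, 7 passed the filter on low counts. Both sEVHYP libraries were above all sEVCTRL libraries for 3 of these 7, Mup2, Mup9 and Mup10, and below them for 1, Mup8. Over all genes tested, 6.7% were above in this way and 6.08% below, 12.8% in all. Against sEVNORM 3 members were above, Mup1, Mup9 and Mup10, and 1 was below, Mup8, where 12.3% and 10.5% of all genes were, 22.8% in all. Mup20, which did not pass the filter, was also above all sEVCTRL libraries, at 3 and 6 counts. Between sEVNORM and sEVCTRL, 0 of the 7 members were without overlap, where 4.86% of all genes were, 2.69% higher and 2.17% lower. The members were chosen on these contrasts, and these counts only describe them. The 10 other Mup genes that passed the filter had positive fitted differences for sEVHYP in both comparisons, with a median log2 difference of 0.85 from sEVCTRL and 0.76 from sEVNORM, beside medians of -0.02 and -0.02 over all genes tested. They share reads with the members and are not independent of them.

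**Figure D5:**
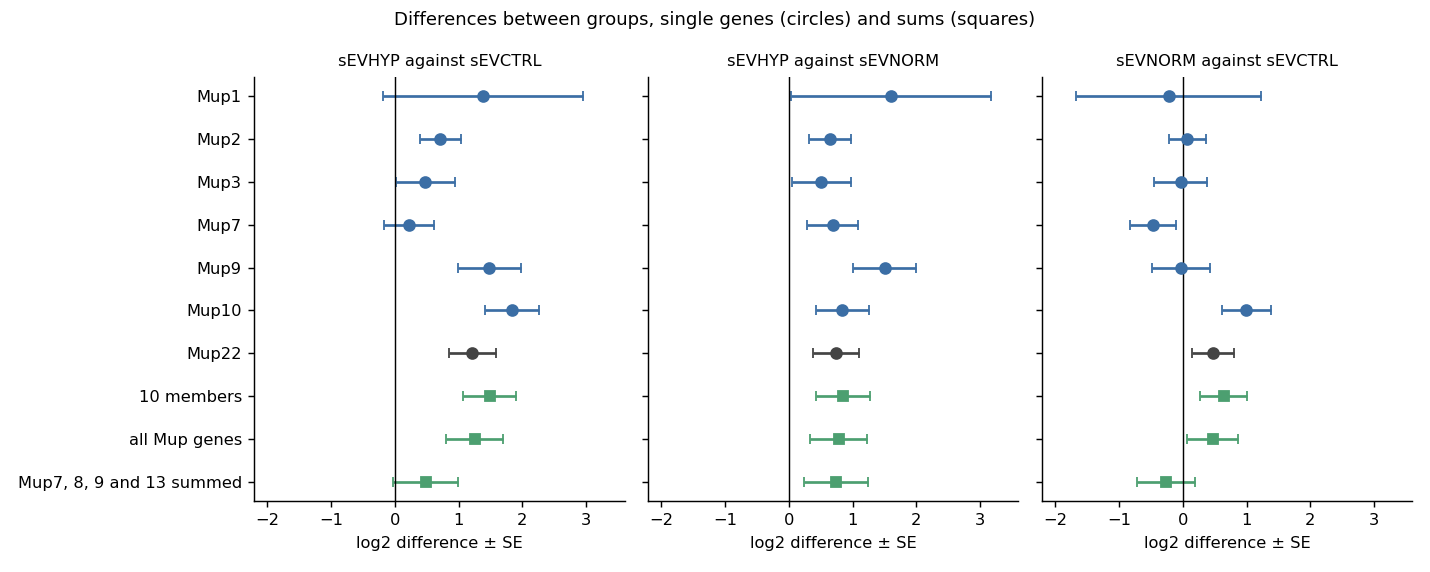
Points give the log2 difference and whiskers the standard error (x axis) in the 3 comparisons (panels) for 6 members, for Mup22 and for 3 sums (y axis), fitted with edgeR for single genes and computed from log2 CPM for sums. Mup8, Mup4, Mup5 and Mup20 are not drawn because a fold against libraries at 0 has no fixed value or the gene did not pass the filter. Differences for sEVHYP lie above 0 for all items drawn, and those of sEVNORM from sEVCTRL lie on both sides of 0.

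Per kilobase of longest transcript, the level of the members spanned several orders of magnitude. Mup10 had a mean of 226 CPM per kilobase over the 8 libraries (range 63.2 to 456), followed by Mup2 with 44.5 (23.8 to 74.8) and Mup7 with 20.2 (11.6 to 30.6). In all 8 libraries Mup10 was above Mup2, Mup2 above Mup7 and Mup7 above Mup3. The next members, Mup3 with 9.06, Mup1 with 8.26 and Mup9 with 7.07 CPM per kilobase, had overlapping ranges and did not keep their order from library to library. Mup8 followed with 1.30, and Mup20, Mup5 and Mup4 were below 0.15 CPM per kilobase each. For comparison, Mup22 was at 5900 CPM per kilobase (2520 to 10820).

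Genes that control Mup transcription in liver were then examined across all genes tested, with edgeR's two-sided quasi-likelihood test. Of 20 listed genes 17 were tested, and with sEVHYP 2 were higher than with sEVCTRL at an unadjusted p under 0.05, where 1.39% of all genes tested were, and 0 were lower, where 1.06% were (2.45% in all). Against sEVNORM 1 was higher, where 2.25% of all genes were, and 0 were lower, where 1.7% were (3.95% in all), and between sEVNORM and sEVCTRL there were 0 calls, where 1.63% of all genes were called. The median log2 difference of the list was 0.15, 0.27 and -0.12 in the 3 comparisons, beside -0.02, -0.02 and -0.00 over all genes. Of all genes tested, 0 had an adjusted p under 0.05 in edgeR in each of the 3 comparisons, while 438, 706 and 291 had an unadjusted p under 0.05, and DESeq2 fitted on the groups compared gave 14, 83 and 3 genes at an adjusted p under 0.05. Every gene called below by its unadjusted p, in any list, had an adjusted p = 1 in edgeR over all genes tested. With DESeq2 on only the groups compared, 3 of these calls passed after adjustment, Dio2 against sEVCTRL (DESeq2 adjusted p = 0.017) and Cish and Klk1 against sEVNORM (DESeq2 adjusted p = 0.0218 and adjusted p = 0.00867). With DESeq2 on all 8 libraries only Klk1 did so (adjusted p = 0.0265), and the values for Dio2 and Cish were adjusted p = 0.318 and adjusted p = 0.244.

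Both genes called encode inhibitors of cytokine signaling that are themselves induced by STAT5. Cish was at 3.04, 5.56 and 5.74 CPM with sEVCTRL, 5.95, 3.41 and 5.81 CPM with sEVNORM, and 13.7 and 11.4 CPM with sEVHYP. It was higher with sEVHYP by a log2 difference of 1.39 ± 0.35 (SE) from sEVCTRL and 1.31 ± 0.34 from sEVNORM, called in both comparisons, with both sEVHYP libraries above the other 6. These calls were kept under all 15 alternatives. Socs2 was at 62.4, 88.4 and 65.5 CPM with sEVCTRL, 57.2, 83.3 and 110.5 CPM with sEVNORM, and 103 and 117 CPM with sEVHYP. Its log2 difference was 0.61 ± 0.27 from sEVCTRL, which was called, and 0.39 ± 0.27 from sEVNORM, which was not. The call of Socs2 was kept in 9 of 15 alternatives and was lost without sEVCTRL replicate 1 or 3, sEVNORM replicate 2 or either sEVHYP replicate, and with DESeq2 size factors in edgeR. The receptors and STAT genes of the pathway did not pass the threshold. Ghr, the growth hormone receptor, was at 825 to 1238 CPM with sEVCTRL, 644 to 1136 CPM with sEVNORM, and 978 and 1386 CPM with sEVHYP. For Stat5b the log2 difference was 0.24 ± 0.19 from sEVCTRL and 0.39 ± 0.19 from sEVNORM. Of the liver transcription factors on the list, Hnf4a was at 0 in all 8 libraries and Foxa2 was at no more than 0.0804 CPM in any of them, while Cebpa was at 66.6 to 135.5 CPM and Cebpb at 3.81 to 10.8 CPM.

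Genes of organs that secrete Mup proteins were compared with the same libraries. Of 21 genes for secreted or abundant liver proteins 12 were tested, and 0 were called in any comparison. The most abundant were Cyp2e1, at 591 to 2867 CPM, and Trf (transferrin), at 629 to 1054 CPM, both of which are also expressed in fat or mammary tissue. The hepatocyte genes of the list did not share a level. Fga was at 0 in all libraries, and Ttr, Cps1, Hpx and Apoa1 were at no more than 0.268 CPM in any library. Others were present, with Fgg at 4.43 to 44.3 CPM, Fgb at 1.92 to 19.5 CPM, Serpina1e at 5.03 to 20.4 CPM and Serpina1b at 4.47 to 11.7 CPM. Alb was at 29.6 to 91.2 CPM with sEVCTRL, 42.8 to 53.5 CPM with sEVNORM, and 22.9 and 41.2 CPM with sEVHYP. The whole list had a mean log2 CPM of 0.435 to 1.05 with sEVCTRL, 0.427 to 0.825 with sEVNORM, and 0.442 and 0.526 with sEVHYP. By this mean the list was not above the other groups in the 2 libraries with the most Mup RNA, but 10 of its 21 genes averaged below 1 CPM. The part of liver RNA in the Mup values was not tested.

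Of 17 salivary and lacrimal gland genes in the table, 4 were tested, and 9 were at 0 in all libraries, among them Smgc, Dcpp1 and Esp1. The list had the salivary amylase Amy1, which is also expressed in liver and fat, at 68.3 to 121 CPM. Klk1, a kallikrein protease, was lower with sEVHYP than with sEVNORM, at 0.733 and 0.428 CPM against 4.62, 3.76 and 1.89 CPM. It was also called lower than with sEVCTRL (1.62, 1.00 and 1.59 CPM), and higher with sEVNORM than with sEVCTRL. The first call was kept in all 14 alternatives that could be fitted, the second in 8 and the third in 13. Over all genes tested, 1.7% were called lower with sEVHYP than with sEVNORM and 1.06% lower than with sEVCTRL. For sEVNORM against sEVCTRL, 0.89% were called higher. Of the lipocalins and other small carrier proteins related to Mup in fold, 11 of 22 were tested and 1 was called, Lcn4, lower with sEVHYP than with sEVNORM at 0.778 and 0.268 CPM against 1.97, 1.37 and 1.75 CPM, a call that was lost without sEVHYP replicate 2 and kept in 9 of 14 alternatives. The odorant-binding lipocalins Obp1a, Obp1b, Obp2a and Obp2b were at 0 in all libraries, and Fabp4 and Orm1 were the most abundant of the list, at up to 4234 and 349 CPM.

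On the side that detects Mup proteins, 5 of 12 vomeronasal genes were tested. Trpc2, the ion channel of vomeronasal neurons, had levels of 0.457, 1.5 and 0.492 CPM with sEVCTRL, 0.522, 0 and 1.09 CPM with sEVNORM, and 0 in both sEVHYP libraries. It was lower with sEVHYP in both comparisons (calls kept in 12 of 13 and 9 of 14 alternatives), at least 5.49-fold and 3.6-fold against the floor of 3 counts, and it overlaps another annotated gene, so its counts are uncertain. Over all genes tested, 1.06% were called lower with sEVHYP than with sEVCTRL and 1.7% lower than with sEVNORM. Omp, which marks mature sensory neurons, was at no more than 0.383 CPM in any library.

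Markers of the cell types of the gland were also present. All 12 white adipocyte markers were tested with 0 called, at a mean log2 CPM of 8.83 to 9.56 with sEVCTRL, 8.42 to 9.21 with sEVNORM, and 8.76 and 9.37 with sEVHYP. The 13 luminal epithelium markers gave 0 calls, at 4.82 to 5.67, 5.32 to 5.64, and 5.57 and 5.74. Of 10 brown adipocyte markers 9 were tested. With sEVHYP 2 were higher than with sEVCTRL, Dio2 (3.89 and 15.9 CPM against 1.37 to 1.73) and Ucp1 (0.321 and 6.15 CPM against 0 to 0.203), and 1 was higher than with sEVNORM, Cox7a1 (9.52 and 15.1 CPM against 2.21 to 5.63). All 3 calls were lost without sEVHYP replicate 2. The mean log2 CPM of this list was 2.00 and 2.98 with sEVHYP against 1.22 to 1.82 in the other libraries. Among those 6 libraries it was highest, at 1.82 and 1.77, in the 2 with the lowest Mup totals, sEVCTRL replicate 2 and sEVNORM replicate 2, and the summed CPM of the list was highest in sEVCTRL replicate 2, at 439 against 145 and 361 with sEVHYP. The part of brown fat in the Mup values was not tested. Oxtr and Cnn1 of the 8 basal epithelium markers were higher with sEVHYP than with sEVCTRL, and Cnn1 also than with sEVNORM. Each of these calls was lost without sEVHYP replicate 1. Against sEVCTRL the call was kept in 12 of 15 alternatives for Oxtr and 6 of 15 for Cnn1, and against sEVNORM in 11 of 15 for Cnn1. Of all genes tested, 1.39% were called higher with sEVHYP than with sEVCTRL and 2.25% than with sEVNORM.

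Other tissue in the samples varied between libraries. The 12 skeletal muscle markers had a mean log2 CPM of 4.12 to 8.90 with sEVCTRL, -0.67 to 7.41 with sEVNORM, and 7.87 and 8.53 with sEVHYP, with 0 called and a median log2 difference of 1.05, 2.39 and -1.33 in the 3 comparisons. By mean log2 CPM muscle signal was highest in sEVCTRL replicate 2, the library with the lowest Mup total, whereas by summed CPM it was highest in sEVHYP replicate 2, the library with the highest Mup total (13160 against 8831 in sEVCTRL replicate 2). It was lowest by both measures in sEVNORM replicate 2, which had the second lowest Mup total. The part of muscle in the Mup values was not tested. Skin markers stood out in sEVNORM replicate 3 at a mean log2 CPM of 1.94 against -1.83 to -1.16 in the rest. Of 6 skin markers tested, 3 were called higher with sEVNORM than with sEVCTRL, Krt77, Dsg1a and Krtdap, where 0.89% of all genes were. The library sEVNORM replicate 3 also had the highest Mup total outside sEVHYP. The log2 difference of the 10-member sum between sEVHYP and sEVNORM was 1.11 without it. Of 12 milk protein genes 8 were tested, and 2 were called lower with sEVHYP than with sEVNORM, where 1.7% of all genes were. They were Glycam1 (666 and 543 CPM against 637, 1189 and 1018) and Csn1s2a (0.183 and 0.107 CPM against 2.57, 0.399 and 0.52). Both calls were lost without sEVHYP replicate 2. The call of Glycam1 was kept in 7 of 15 alternatives and that of Csn1s2a in 10 of 14. The other comparisons gave 0 calls.

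Outside the family, the genes whose log2 CPM over the 8 libraries was most like that of the 10-member sum were Gm10243, Echdc1, Tmem184c, Znrf3 and Gm43413. Pearson's r was 0.93, 0.93, 0.92, 0.92 and 0.92, given as a description over 8 libraries that include the group differences. Echdc1, an enzyme that removes faulty intermediates of fatty acid synthesis, was at 139.6 to 162 CPM with sEVCTRL, 177 to 189 CPM with sEVNORM, and 229 and 239 CPM with sEVHYP. Znrf3, a ubiquitin ligase that removes Wnt receptors, was at 9.57 to 11.3 CPM, 11.5 to 11.96 CPM, and 12.6 and 15.5 CPM. The membrane protein gene Tmem184c was at 83.0 to 95.1 CPM, 84.9 to 94.4 CPM, and 97.0 and 101 CPM in the same order. Gm10243, the first named, was at only 0.328 to 1.28 CPM over the 8 libraries, and Gm43413 at 1.37 to 2.57 CPM.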

How the data were processed

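RNA of 8 mammary glands was sequenced with poly(A) selection. Alignment to mm10 (GRCm38) by the authors used STAR, and RSEM 1.2.12 then gave estimated counts for the genes of Ensembl GRCm38.89. RSEM divides reads that match several genes by a statistical model. The counts were deposited as whole numbers and had not been normalized, and how the estimates became whole numbers, the read length and the read pairing are not given in the sources used here. Where reads fit near-identical Mup copies, a count is therefore an estimate whose error is not recorded in the table.

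Groups were taken from the sample labels. Members and gene lists were chosen with earlier results of these data known, so members have no p-values. For the tests, edgeR 4.0.16 was run in R 4.3.3 (genes kept by filterByExpr at a minimum count of 10, TMM, one model of 3 groups, two-sided quasi-likelihood test, 17858 genes tested, Benjamini-Hochberg adjustment, 5 residual and 4.08 prior degrees of freedom). CPM used TMM factors, and log2 CPM of sums used a prior count of 2. The procedure was tested on simulated data. The study counts replicates as animals, the labels do not name the animal of each library, and no 2 libraries were close enough to be duplicates. Identity was computed by alignment of the longest GENCODE M21 transcripts, and shared stretches of 50, 75 and 100 bases over all transcripts. Promoters were taken from RefSeq on GRCm38.p6.

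Named genes are the 10 members, Mup genes with counts, up to 4 genes per list with an unadjusted p under 0.05 in a comparison (otherwise the 2 most abundant), and the 5 genes nearest to the 10-member sum. Genes at or near 0, Alb, Ghr, Stat5b, Cebpa, Cebpb, Fgb, Fgg, Serpina1b and Serpina1e were named after their values were seen. Alternatives were DESeq2 1.42.0 or its size factors, fits of only the 2 groups, other filters, a prior count of 0.5, other sums of Mup genes, the replicate number as a block and each library left out in turn.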

Additional observations from a re-analysis of the deposited data

How the results depend on the processing

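The log2 difference of the 10-member sum kept its direction and moved by less than the spread between replicates under every alternative tried. No alternative left out Mup10, the member with the most counts, so this stability does not extend to the other members. With sEVCTRL Mup10 held 3.28%, 3.46% and 1.42% of all Mup counts, where the 10 members held 5.01%, 5.57% and 3.6%. With sEVHYP it held 4.23% and 4.04%, where they held 5.50% and 5.465%. For sEVNORM against sEVCTRL the fitted log2 difference of Mup10 was 0.99. Of the 7 members fitted there, 3 were positive and 4 negative, with a median of -0.03. The sum without Mup10 was not computed. Leave-one-out ranges over libraries were 1.26 to 1.78 for sEVHYP against sEVCTRL, 0.62 to 1.11 against sEVNORM and 0.38 to 0.93 for sEVNORM against sEVCTRL. The numbers of genes with an unadjusted p under 0.05 (438, 706 and 291 in that order) depended more on the setting. Without a filter, when 27246 genes were tested, they were 672, 1102 and 533, and DESeq2 on only the 2 groups gave 1195 for sEVHYP against sEVNORM. Leaving out 1 library gave 341 to 1472, 415 to 986 and 222 to 1018 genes, with the highest value of each range without sEVCTRL replicate 2, the lowest of the second without sEVHYP replicate 2, and 568 genes in the third without sEVCTRL replicate 1. The cause of the shifts between libraries and tools was not tested. Among 327 member differences under alternatives, 20 had another sign than the value given. Of these, 17 were of Mup1, Mup2, Mup3, Mup7 or Mup9, in differences no larger than about 1 standard error, and 3 were of Mup8, which turned positive against sEVCTRL and sEVNORM (0.48 and 0.74) when summed with its identity group and negative (-0.26) for sEVNORM against sEVCTRL. Of 277 values of called list genes, 206 kept and 71 lost the call, and none changed sign.

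Replicate numbers were entered as a block as well. Same-numbered libraries did not deviate together in all pairs (correlations of -0.42 to 0.37 over 7 pairs, 2 of them over 0.1), so the numbers were not taken as a pairing. With the replicate block 401, 769 and 252 genes had an unadjusted p under 0.05, and the 10-member sum differed by 1.38, 1.11 and 0.64. The difference of Mup1 was 3.31 from sEVCTRL and 3.03 from sEVNORM with the block.

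Depth limits Mup4, Mup5 and Mup20, which had 5 to 22 counts in all. The division of reads among near-identical copies limits the single-gene values of Mup1, Mup2, Mup7, Mup8, Mup9 and Mup10, and sEVHYP rests on 2 libraries.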
